A study of Mus musculus with 12 samples.

Results

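The structural genes of the hair shaft and of the inner root sheath were followed through RNA-seq libraries of sorted mouse skin cells with and without knockout of the epidermal growth factor receptor gene Egfr. The members were 77 of the 25965 gene rows of each table: every row named as a keratin-associated protein (Krtap), every row named as one of the listed hair or inner root sheath keratins, and Tchh, Padi1, Padi3, Gprc5d, Selenbp1 and Crym. They comprised 50 keratin-associated proteins, 9 type I and 5 type II hair keratins, 4 type I and 3 type II inner root sheath keratins, and the 6 others. Krt72, Krt85 and Krt87, which the naming rule also covers, had no row under those names and were not analysed here.

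The 12 mouse libraries formed 6 groups of 2. Hair follicle stem cells (HFSC) came from genotype EGFR_delta_LGR5 (libraries L95 and L97, labelled knockout) and from EGFR_fl_fl controls (L136 and L94). Outer root sheath (ORS) cells came from EGFR_delta_ep knockouts (E358 and E359) and from EGFR_fl_fl controls (E341 and E344). The third sorted population, called IFE, came from EGFR_delta_ep knockouts (E358 and E359) and from EGFR_fl_fl controls (E341 and E360). All controls carried the floxed Egfr allele. No source used here gives the Cre drivers behind the delta names, the age of the mice, the sorting markers or whether animals were pooled. IFE usually abbreviates interfollicular epidermis, whereas the sample label spells it out as inner root sheath. E341, E358 and E359 each label an IFE and an ORS library. Nothing else states that libraries of a group came from separate mice, so the p-values measure the spread between these libraries.

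As background, a growing hair is built by matrix cells in the bulb, which feed a central shaft and a surrounding inner root sheath. Shaft cells fill with hair keratins, which pair as type I and type II chains, and with cysteine-rich or glycine-tyrosine-rich keratin-associated proteins that cross-link them. Inner root sheath cells instead make their own keratin pairs together with trichohyalin, encoded by Tchh. The outer root sheath and the bulge stem cells surround these layers, and neither is a known site of abundant shaft protein.

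Reads assigned to genes numbered 11526521 to 16829286 per HFSC library, 24663911 to 27666954 per ORS library and 11412781 to 13175759 per IFE library. As a share of all reads of a library this was 26.87% to 28.86% in HFSC, 50.56% to 54.62% in ORS and 27.79% to 29.58% in IFE. ORS libraries stand apart in this measure, and its part in the compartment differences was not tested. Levels below are CPM, each gene's reads relative to all reads in genes of its library after trimmed-mean (TMM) scaling, and 3 reads, the limit that a count of 0 allows, amounted to 0.107 to 0.268 CPM by library; such limits cover counting error alone. Egfr stood at 335 and 330 CPM in the HFSC libraries labelled knockout, against 389 and 431 CPM in HFSC controls. It stood at 3.72 and 55.2 CPM in ORS knockouts against 277 and 247 CPM in ORS controls, and at 0 and 0.319 CPM in IFE knockouts against 116 and 156 CPM in IFE controls. Since Egfr reads persisted in HFSC, those libraries are called libraries labelled knockout throughout. Cd34, a bulge stem cell marker, reached 1330 to 2150 CPM in HFSC and at most 5.88 CPM elsewhere. The 10 genes listed for bulge stem cells, Cd34 among them, were split between HFSC and ORS. Of these, 4 were called higher and 2 lower in HFSC than in ORS, beside 28.7% of all genes. Lrig1, called lower, had 91 to 124 CPM in HFSC and 327 to 433 CPM in ORS. Against IFE, 8 of the 10 were called higher in HFSC and 0 lower. Krt10, a keratin of suprabasal epidermis, had 30.6 to 77.7 CPM in HFSC, 27.5 to 65.6 CPM in ORS and 649 to 1400 CPM in IFE. The 10 rows listed for suprabasal epidermis were split, 3 called higher and 4 lower in HFSC than in IFE, beside 36.1% of all genes. Sbsn among them had 1870 to 2290 CPM in HFSC and 64.5 to 159 CPM in IFE.

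Reads were found for 27 of the 77 members, and 50 members had 0 reads in all 12 libraries. Of 924 combinations of member and library, 144 held reads, 23 of them 1 to 9 reads and 51 at least 100 reads. The 3 members with reads in every library were Tchh, Krt32 and Selenbp1. A library held reads of 13 to 18 members in HFSC, 10 to 15 in ORS and 5 to 10 in IFE. That is 6.5% to 23.4% of the members, whereas 48.9% to 57.7% of all rows had reads. Summed over members, the level was 88.7 to 154.2 CPM in HFSC, 76.1 to 109.5 CPM in ORS and 35.5 to 71.6 CPM in IFE. For scale, Krt15, a basal and bulge keratin that is no member, alone reached 4200 to 36600 CPM.

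Replicates of a group often differed in whether a member was seen at all. In 40 of the 92 combinations of member and group with any read, or 43.5%, reads came from only 1 of the 2 replicates, against 13.4% over all genes. Sequence shared with other genes, which some counting schemes discard, was counted in exact windows of 100 bases, so shorter shared stretches are missed. Its part in the absence of reads was not tested. Among the 50 members without reads, 1 (Krtap4-13) had over 50% of its 100-base windows in common with another gene and 29 had none, and among the 27 with reads 16 had none. The members without reads were shorter, with a median of 905 exonic bases against 1989, and 38 of 50 had a single exon, against 6 of 27 of those with reads. In bulk libraries such as these, fewer cells of a type and less RNA per cell cannot be told apart.

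**Figure D1:**
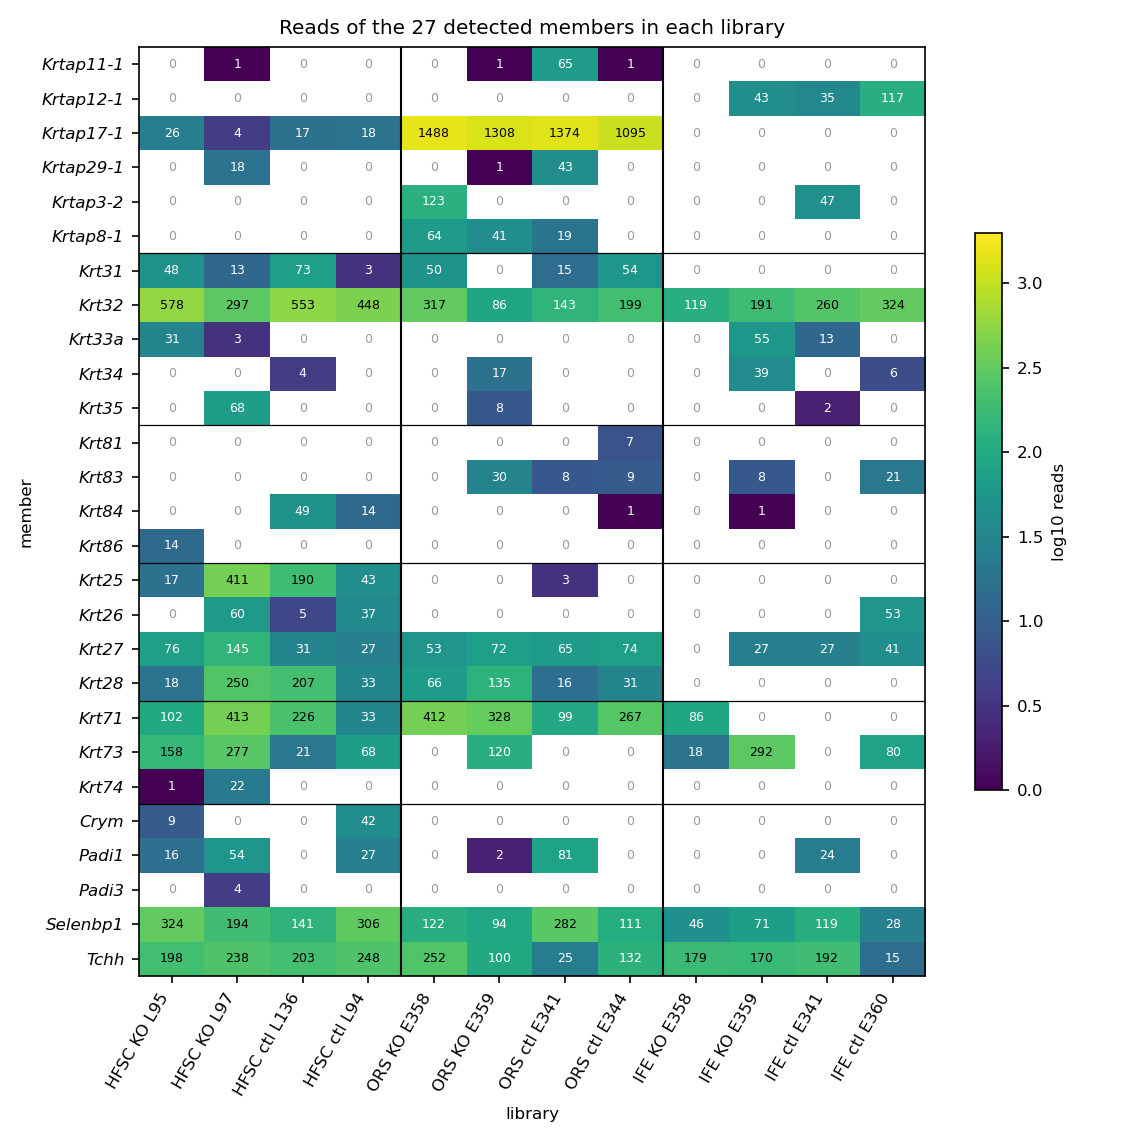
Reads of the 27 detected members (rows, grouped by family) in each of the 12 libraries (columns, KO is knockout and ctl control); numbers are reads and colour is their log10, with white for 0. Krtap17-1 holds 1095 to 1488 reads in the 4 ORS libraries and 0 in the 4 IFE libraries, while most other members are scattered over a few libraries.

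The keratin-associated proteins were almost silent, with 44 of 50 at 0 reads in all 12 libraries. The exception was Krtap17-1, the gene of a keratin-associated protein of the hair shaft, which is a single-exon gene (ENSMUSG00000078252.1) of 761 bases on the minus strand at chr11:99993234-99993994 in the GRCm38 build. Krtap17-1 stood at 55.3 and 49.3 CPM in ORS knockouts and at 48.9 and 42.1 CPM in ORS controls, from 1095 to 1488 reads a library. In HFSC it stood at 1.59 and 0.25 CPM in the libraries labelled knockout and at 1.5 and 1.18 CPM in controls, from 4 to 26 reads, and in IFE all 4 libraries had 0 reads. Every ORS library was above every HFSC and IFE library. HFSC and IFE were not fully apart, because the lowest HFSC value, 0.25 CPM in L97 from 4 reads, lies below the limit that 0 reads allow in IFE controls E341 (0.252 CPM) and E360 (0.268 CPM).

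Differences were tested with limma over all 15251 genes that passed a filter on low counts, among them 20 members, and are called where the Benjamini-Hochberg adjusted p is under 0.05. Krtap17-1 was higher in ORS than in IFE by 6.62 on the log2(CPM + 0.5) scale (SE 0.523, limma adjusted p = 4.59e-06). Against a floor of 3 reads per IFE library its ORS mean of 48.9 ± 5.41 CPM (SD, n = 4) was at least 196-fold higher. It was lower in HFSC than in ORS, with a log2 fold change of -5.02 (SE 0.523, limma adjusted p = 2.91e-05). HFSC exceeded IFE by 1.60 (SE 0.523, limma adjusted p = 0.0316), a call resting on few reads that was lost at a pseudocount of 2 (0.62, adjusted p = 0.163). It was also lost in the control libraries alone (adjusted p = 0.094) and without any 1 of HFSC L95 (0.139), L136 (0.0869) or L94 (0.0678) or of IFE controls E341 (0.0543) or E360 (0.0579). The ORS against IFE and HFSC against IFE comparisons share the IFE libraries. Within ORS, Krtap17-1 averaged 52.3 ± 4.23 CPM in knockouts and 45.5 ± 4.8 CPM in controls (SD, n = 2 each). That difference of 0.20 on the log2 scale had a 95% interval of -1.41 to 1.82 and a limma adjusted p of 1.0, so changes of either sign up to those sizes remain possible. It was printed because of the gene's level, a choice made after its values were seen.

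Krtap17-1 supplied 88.8% to 99.9% of the reads of all 50 keratin-associated proteins in each ORS library, and 50.5% to 61.4% of the reads of all 77 members. Per kilobase of exon its mean level in ORS was 64.3 CPM, whereas the next members in ORS, Krt71 and Krt32, had mean levels of 4.74 and 4.03 CPM per kilobase. None of its 100-base windows was shared with another gene. It was among 23 of the 25965 rows, or 0.089%, with 0 reads in all 4 IFE libraries and at least 10 CPM in all 4 ORS libraries. That base includes rows without reads in ORS, and ORS libraries held more reads in genes than IFE libraries. The rule was also set with earlier results known, so the share is a description and does not measure rarity. The transcription factor genes Hoxc13 and Prdm1 were among these 23.

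**Figure D2:**
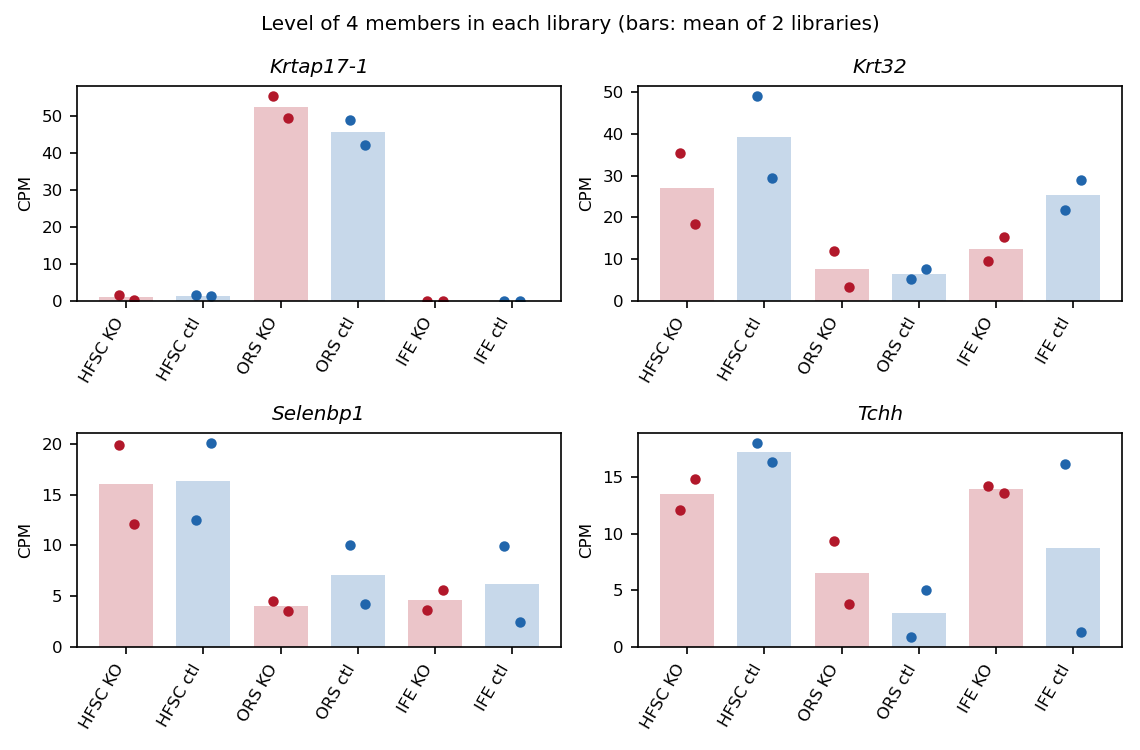
Level (CPM, linear axis from 0) of Krtap17-1, Krt32, Selenbp1 and Tchh in each library (points) and the mean of each group (bars, n = 2), with knockout in red and control in blue. Krtap17-1 lies at 42.1 to 55.3 CPM in ORS and at 0 in IFE, while Krt32 and Selenbp1 are highest in HFSC.

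Krtap17-1 lies at the end of the chromosome 11 array of keratin-associated proteins, next to the type I hair keratins. The nearest member on 1 side, Krtap29-1, had 18 reads in HFSC L97, 1 in ORS knockout E359 and 43 in ORS control E341, and 0 in the other 9 libraries. The nearest hair keratin on the other side, Krt33a, had 31 and 3 reads in the HFSC libraries labelled knockout, 55 reads in IFE knockout E359 and 13 in IFE control E341, and 0 in ORS. Among the keratin-associated proteins and type I hair keratins, Krtap17-1 and Krt32 were the genes with reads in all 4 ORS libraries.

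**Figure D3:**
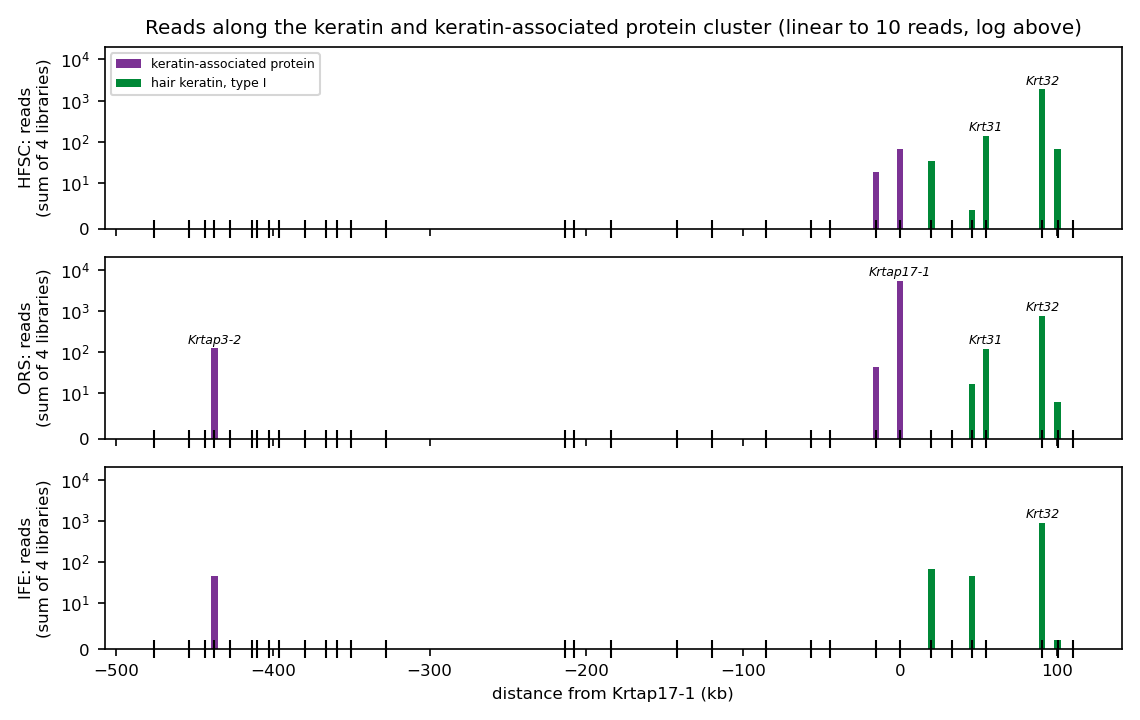
Reads summed over the 4 libraries of HFSC, ORS and IFE (rows; linear to 10 reads and logarithmic above) for the members around Krtap17-1 on chromosome 11, plotted by distance from it in kb; black ticks mark every member row. The 1 tall keratin-associated protein bar is Krtap17-1 in ORS, and most ticks carry no bar.

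The other 5 detected keratin-associated proteins were low and irregular. Krtap12-1, a cysteine-rich family member, had 0 and 3.43 CPM in IFE knockouts, 2.94 and 10.4 CPM in IFE controls and 0 reads in all 8 ORS and HFSC libraries. It passed the filter on low counts through IFE alone, so a compartment difference was built into its being tested. Its log2 fold change was -2.55 (SE 0.648) both for ORS against IFE (limma adjusted p = 0.0167) and for HFSC against IFE (adjusted p = 0.00892). The ORS call was lost without ORS knockout E359 (adjusted p = 0.0511), ORS control E341 (0.0530), ORS control E344 (0.0557) or IFE control E360 (0.0617). Krtap12-1 lies within the annotated span of Tspear on the same strand, so reads of unspliced Tspear RNA and of Krtap12-1 cannot be told apart there.

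Krtap8-1, a glycine-tyrosine-rich family member, passed the filter through ORS alone, so here too a difference was built in. It had 2.38 and 1.55 CPM in ORS knockouts, 0.676 and 0 CPM in ORS controls and 0 reads elsewhere. It was called higher in ORS than in IFE (log2 fold change 1.45, SE 0.445, limma adjusted p = 0.0397) and lower in HFSC than in ORS (-1.45, adjusted p = 0.0293). Neither call stood in the control libraries alone (adjusted p = 0.630 and 0.581), and the call against IFE was also lost with limma-voom (0.0791), a pseudocount of 2 (0.0582) and separate fits (0.122). Leaving out single libraries ended the call against IFE for 7 of 8 libraries, all but ORS control E344 (adjusted p 0.0587 to 0.146). It ended the call against HFSC for 6 of 8, all but ORS knockout E359 and ORS control E344 (0.0696 to 0.116). Krtap3-2, Krtap11-1 and Krtap29-1 had at most 4.57 CPM in any library.

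The promoter of Krtap17-1 is shown beside those of the 3 inner root sheath keratins Krt25, Krt28 and Krt71, described next, which were picked after their values were seen for being high in the same HFSC libraries. Each is the RefSeq sequence from 250 bases before to 50 bases after the gene start, from build GRCm38.p6, and each lies on the minus strand. Capitals mark matches on either strand to TATAAA (the TATA box), CTTTGA (the core bound by LEF1 and TCF factors) and GATAAG (the core bound by GATA factors), which do not overlap one another.
Krtap17-1, chr11:99993945-99994244: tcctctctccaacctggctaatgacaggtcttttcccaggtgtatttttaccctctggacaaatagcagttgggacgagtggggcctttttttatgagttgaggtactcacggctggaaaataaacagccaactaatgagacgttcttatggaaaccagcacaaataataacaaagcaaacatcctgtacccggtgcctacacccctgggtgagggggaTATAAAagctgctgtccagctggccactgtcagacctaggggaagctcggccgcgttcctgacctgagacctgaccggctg
Krt25, chr11:99322902-99323201: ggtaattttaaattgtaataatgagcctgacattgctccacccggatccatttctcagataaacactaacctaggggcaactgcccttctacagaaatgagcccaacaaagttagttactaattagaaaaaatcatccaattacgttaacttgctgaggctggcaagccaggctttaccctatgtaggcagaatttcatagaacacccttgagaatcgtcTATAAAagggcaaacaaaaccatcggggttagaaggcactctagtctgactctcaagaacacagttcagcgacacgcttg
Krt28, chr11:99374854-99375153: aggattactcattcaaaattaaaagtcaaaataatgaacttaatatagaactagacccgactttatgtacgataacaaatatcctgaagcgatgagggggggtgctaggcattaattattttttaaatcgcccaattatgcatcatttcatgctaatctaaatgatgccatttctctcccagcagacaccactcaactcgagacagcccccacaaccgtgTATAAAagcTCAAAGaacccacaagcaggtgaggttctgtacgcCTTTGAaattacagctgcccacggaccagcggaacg
Krt71, chr15:101743048-101743347: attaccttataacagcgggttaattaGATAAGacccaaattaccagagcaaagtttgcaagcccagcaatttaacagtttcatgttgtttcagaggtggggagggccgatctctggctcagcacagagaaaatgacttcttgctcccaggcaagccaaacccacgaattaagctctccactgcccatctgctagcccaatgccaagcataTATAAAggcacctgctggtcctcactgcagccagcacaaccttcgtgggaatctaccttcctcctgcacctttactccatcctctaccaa
TATAAA began at position -31 from the start in Krtap17-1, at -30 in Krt25 and Krt28 and at -40 in Krt71. For Krt71 the RefSeq start differs from the start of its gene row, chr15:101743109. Its positions count from the RefSeq start and are not directly comparable with the others. CTTTGA occurred in Krt28 on each strand, at -21 and 15, and GATAAG in Krt71 at -224. Promoters were found for 64 of the 77 members by position. TATAAA was present in 50 of them, or 78.1%, against 14.2% of 27025 mouse promoters of the same length, CTTTGA in 29.7% against 16.2%, and GATAAG in 9.4% against 7.4%. Such matches are descriptions of sequence and not shown sites. Since 50 exceeds the 27 members with reads, members without reads hold TATAAA as well.

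All 7 inner root sheath keratins had reads, and each had its highest mean over the 4 libraries of a compartment in HFSC. The label calls the IFE libraries inner root sheath. For Krt73 the HFSC and IFE means were close, at 8.33 ± 6.80 and 7.97 ± 10.7 CPM (SD, n = 4 each). For Krt26 they were 1.66 and 1.18 CPM, and its highest library was IFE control E360 at 4.73 CPM. Neither difference was called (limma adjusted p = 0.540 for Krt73 and 0.486 for Krt26). Krt25, Krt27 and Krt28 are type I partners of the inner root sheath, and Krt71, Krt73 and Krt74 their type II partners. Krt25 (8 exons, chr11:99315516-99322951, minus strand) had 1.04 and 25.6 CPM in the HFSC libraries labelled knockout, 16.8 and 2.83 CPM in HFSC controls, 0.107 CPM in ORS control E341 and 0 reads in the other 7 libraries. Krt28 (8 exons, chr11:99364872-99374903, minus strand) had 1.10 and 15.6 CPM in the HFSC libraries labelled knockout and 18.3 and 2.17 CPM in HFSC controls. Krt28 had 2.45 and 5.09 CPM in ORS knockouts, 0.569 and 1.19 CPM in ORS controls and 0 reads in IFE. Both genes were thus unmeasured in IFE, and every HFSC library exceeded every ORS library for Krt25 but not for Krt28.

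Krt71 (9 exons, chr15:101733950-101743109, minus strand) had 6.26 and 25.8 CPM in the HFSC libraries labelled knockout and 20 and 2.17 CPM in HFSC controls. It had 15.3 and 12.4 CPM in ORS knockouts, 3.52 and 10.3 CPM in ORS controls, 6.82 and 0 CPM in IFE knockouts and 0 reads in both IFE controls. HFSC and ORS overlapped for Krt71, and 3 of 4 IFE libraries held none. Krt73 had 9.69 and 17.3 CPM in the HFSC libraries labelled knockout, 1.86 and 4.48 CPM in HFSC controls, 0 and 4.53 CPM in ORS knockouts and 0 reads in ORS controls. In IFE, Krt73 had 1.43 and 23.3 CPM in knockouts and 0 and 7.14 CPM in controls, so its libraries spread from nothing to its highest value within 1 compartment.

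Krt27 was the steadiest of the family outside HFSC. It had 4.66 and 9.05 CPM in the HFSC libraries labelled knockout, 2.74 and 1.78 CPM in HFSC controls, 1.97 and 2.72 CPM in ORS knockouts and 2.31 and 2.84 CPM in ORS controls. IFE held 0 and 2.16 CPM in knockouts and 2.27 and 3.66 CPM in controls, so all 3 compartments overlapped. Krt26 stayed at or below 4.73 CPM and had reads in 4 libraries, and Krt74 had reads in the 2 HFSC libraries labelled knockout, at 0.0613 and 1.37 CPM.

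Called differences placed HFSC above IFE for Krt28 and Krt71. Krt28 was higher in HFSC than in IFE by 3.59 on the log2(CPM + 0.5) scale (SE 0.801, limma adjusted p = 0.00423), with a mean of 9.30 ± 8.93 CPM in HFSC (SD, n = 4), at least 37.3-fold against 3 reads per IFE library. The value was 2.75 without L97 (adjusted p = 0.0182, at least 28.9-fold) and 2.88 without L136 (adjusted p = 0.0225, at least 25.2-fold). Krt25 passed the filter on low counts through HFSC alone, so a difference was built into its being tested. Its HFSC mean was 11.6 ± 11.7 CPM (SD, n = 4), and its log2 fold change was 3.80 against IFE (SE 0.814, limma adjusted p = 0.00326) and 3.73 against ORS (SE 0.814, adjusted p = 0.00466). Against 3 reads per IFE library Krt25 was at least 46.5-fold higher in HFSC, and at least 27.7-fold without L97, where the log2 fold change was 2.77. Krt71 was higher than in IFE both in HFSC (3.34, SE 0.912, limma adjusted p = 0.0132) and in ORS (3.31, SE 0.912, adjusted p = 0.0246).

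The Krt71 calls depended on single libraries. The HFSC call was lost without L97 (2.85, adjusted p = 0.0603) or L136 (2.61, adjusted p = 0.0692). The ORS call was lost without ORS knockouts E358 (adjusted p = 0.0706) or E359 (0.0673), ORS control E344 (0.0988), IFE knockout E359 (0.0548), or IFE controls E341 (0.0559) or E360 (0.0580), and in the control libraries alone (3.72, adjusted p = 0.0991).

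Within HFSC, Krt25, Krt28 and Krt71 were each high in L97 and L136 and low in L95 and L94, and so did not divide by genotype. Krt26 overlapped between genotypes as well. Krt73 and Krt27 did divide in HFSC, each being higher in both libraries labelled knockout than in both controls, though neither was called. Krt74, which was not tested, had reads in L95 and L97 but did not clearly divide. Its 1 read in L95 (0.0613 CPM) lies below the limit that 0 reads allow in controls L136 (0.266 CPM) and L94 (0.197 CPM). Mki67, a marker of cycling cells, was 12.7 and 159 CPM in L95 and L97 and 80.6 and 34.6 CPM in L136 and L94. Summed over the 10 proliferation genes, HFSC ranged from 133.7 to 645.7 CPM in the libraries labelled knockout and from 231.5 to 494.5 CPM in controls. The part of cycling cells in the keratin levels was not tested.

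**Figure D4:**
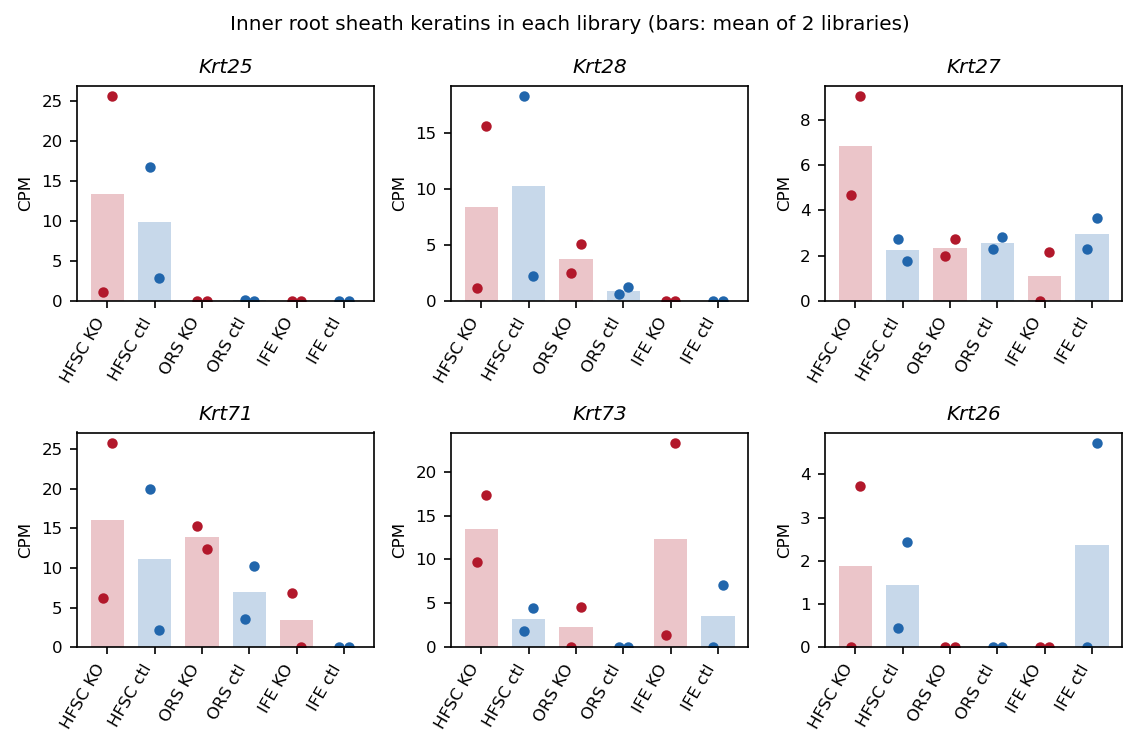
Level (CPM, linear axis from 0, scale differs by panel) of 6 inner root sheath keratins in each library (points) with the group mean (bars, n = 2), knockout in red and control in blue. Krt25, Krt28 and Krt71 each have 1 high and 1 low library in both HFSC groups, and Krt25 and Krt28 are at 0 in IFE.

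Among the type I hair keratins, Krt32, known from the hair cuticle, had the highest mean level of any member per kilobase of exon in HFSC and in IFE, at 19.2 and 11 CPM per kilobase, and in ORS it came after Krtap17-1 and Krt71. Krt32 (9 exons, chr11:100080848-100088226, minus strand) had 35.5 and 18.5 CPM in the HFSC libraries labelled knockout and 49.0 and 29.5 CPM in HFSC controls. ORS held 11.8 and 3.24 CPM in knockouts and 5.09 and 7.65 CPM in controls, and IFE held 9.43 and 15.3 CPM in knockouts and 21.8 and 28.9 CPM in controls. HFSC and ORS did not overlap, whereas IFE overlapped both. The HFSC mean of 33.1 ± 12.7 CPM exceeded the ORS mean of 6.94 ± 3.70 CPM (SD, n = 4 each) by 2.23 on the log2 scale (SE 0.461, limma adjusted p = 0.00333). On the deposited scale, relative to the library total and without TMM scaling, this difference was 1.34 (limma adjusted p = 0.0403). The IFE mean was 18.9 ± 8.41 CPM (SD, n = 4). An antisense gene, Gm11571, overlaps Krt32 and had 10 to 121 reads a library against 86 to 578 for Krt32, and no source used here says whether counting used strand.

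The other hair keratins were sparse. Krt31, a cortex keratin, had 2.94 and 0.811 CPM in the HFSC libraries labelled knockout, 6.46 and 0.197 CPM in HFSC controls, 0 to 2.08 CPM in ORS and 0 reads in IFE. Krt33a, Krt34 and Krt35 had reads in 3 or 4 libraries each and at most 4.39 CPM, while Krt33b, Krt36, Krt39 and Krt40 had none. Krt31, Krt33a and Krt34 share 10% to 17.5% of their 100-base windows with one another or with their relatives, so their reads are uncertain between copies. Of the type II hair keratins, Krt82 had none and Krt81 and Krt86 had reads in 1 library each. The row named Krt83, which lies on the gene annotated as Krt87 in GENCODE, had at most 1.87 CPM. Krt84 passed the filter on low counts through both HFSC controls alone, with 0 reads in both HFSC libraries labelled knockout and 4.34 and 0.922 CPM in controls.

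The remaining members include enzymes and an adaptor of the keratin matrix. Tchh had 12.1 and 14.8 CPM in the HFSC libraries labelled knockout and 18.0 and 16.3 CPM in HFSC controls. ORS held 9.37 and 3.77 CPM in knockouts and 0.889 and 5.07 CPM in controls, and IFE held 14.2 and 13.6 CPM in knockouts and 16.1 and 1.34 CPM in controls. Every HFSC library exceeded every ORS library for Tchh, and IFE overlapped both.

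Selenbp1, a selenium-binding protein with methanethiol oxidase activity, had 19.9 and 12.1 CPM in the HFSC libraries labelled knockout and 12.5 and 20.1 CPM in HFSC controls. ORS held 4.53 and 3.54 CPM in knockouts and 10 and 4.27 CPM in controls, and IFE held 3.65 and 5.67 CPM in knockouts and 9.99 and 2.5 CPM in controls. Every HFSC library was above every ORS and IFE library. Its excess in HFSC over IFE was 1.60 (SE 0.541, limma adjusted p = 0.0363), and 18.9% of its 100-base windows are shared with Selenbp2. That call was lost on the deposited scale (adjusted p = 0.0529), with limma-voom (0.0618), in the control libraries alone (0.182), and without any 1 of HFSC L95 (0.125), L97 (0.0583), L136 (0.0607), L94 (0.125), IFE knockout E358 (0.0773) or IFE control E360 (0.119).

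Padi1 and Padi3, peptidylarginine deiminases that citrullinate trichohyalin, were low: Padi1 reached at most 3.37 CPM and Padi3 had 4 reads in 1 library. Padi1 overlaps the opposite-strand gene Gm13032, which had 166 reads in ORS control E341 against 81 for Padi1. Crym, a thyroid hormone-binding protein, had reads in HFSC L95 and L94 alone, and Gprc5d, an orphan receptor of the hair shaft, had none.

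Over the 20 members tested, the share called was close to that over all genes. In ORS against IFE, 4 of 20 members were called, 3 higher and 1 lower, while 19.4% of 15251 genes were called. In HFSC against ORS, 4 of 20 were called, 2 higher and 2 lower, while 28.7% of all genes were called. In HFSC against IFE, 6 of 20 were called, 5 higher and 1 lower, while 36.1% of all genes were called. The median log2 fold change of the 20 was 0.06, 0.69 and 0.86 in these comparisons in that order, beside 0.12, 0.03 and 0.18 over all genes. Since 4 of the 20 had passed the filter on low counts through 1 compartment, these counts are descriptions, and those 4 made up 2 of the called members in each of the 3 comparisons.

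Genes that regulate the hair matrix and precortex formed a list of 25, of which 24 were tested. In ORS against IFE 10 were higher and 7 lower, or 70.8% called beside 19.4% of all genes. None of the 24 had passed the filter through a single compartment, but the list was chosen with earlier results known, so its shares are descriptions. Hoxc13, a homeobox factor known in mouse to act on hair keratin genes, had 60.5 to 96.5 CPM in HFSC, 38.5 to 67.6 CPM in ORS and 0 reads in all IFE libraries. It was higher than in IFE by 7.25 in HFSC (SE 0.373, limma adjusted p = 1.32e-07) and by 6.69 in ORS (SE 0.373, limma adjusted p = 3.66e-07). Prdm1, a transcriptional repressor, had 4.34 to 12 CPM in HFSC, 50 to 100 CPM in ORS and 0 reads in IFE. Prdm1 thus had its highest level where Krtap17-1 had its own, a match picked from among the 25 listed regulators. Trps1 and Barx2 of the same list also had their highest group means in ORS. Prdm1 was higher in ORS than in IFE by 7.30 (limma adjusted p = 1.57e-06) and lower in HFSC than in ORS (-3.48, adjusted p = 0.000277).

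Several regulators had other orders. Lef1, an effector of Wnt signalling, had 0.79 to 25.3 CPM in HFSC, 16.7 to 20.8 CPM in ORS and 148 to 241 CPM in IFE, and was lower than in IFE by a log2 fold change of -4.52 in HFSC (limma adjusted p = 6.87e-06) and -3.21 in ORS (adjusted p = 0.000197). Foxn1, the nude locus factor that acts in hair keratinization, had 21.1 to 41.3 CPM in HFSC, 0 to 1.09 CPM in ORS and 3.09 to 23.7 CPM in IFE. It was higher in HFSC than in ORS by 5.15 (limma adjusted p = 0.000123) and lower in ORS than in IFE (-4.08, adjusted p = 0.0011). Msx2, a homeobox factor of the matrix, was higher in HFSC than in ORS by 4.10 (limma adjusted p = 0.000119) and than in IFE by 2.09 (adjusted p = 0.00822), and was lower in ORS than in IFE (-2.01, adjusted p = 0.0188). The list split 7 higher and 6 lower in HFSC against ORS (54.2% called, beside 28.7% of all genes), and 11 higher and 4 lower in HFSC against IFE (62.5% called, beside 36.1%).

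A further list of 18 hair shaft and inner sheath structural or processing genes outside the members had 15 tested. In HFSC against ORS 6 were higher and 0 lower (40% called, beside 28.7% of all genes). In HFSC against IFE 6 were higher and 3 lower (60% called, beside 36.1%), and in ORS against IFE 1 was higher and 4 lower (33.3% called, beside 19.4%). Of the 15, Dsg4 and Prr9 had passed the filter through HFSC alone and Hephl1 through IFE alone, so 2, 3 and 1 of the calls in these comparisons were built in and the shares are descriptions. Dsg4, a desmosomal cadherin of the hair shaft, had 0.197 to 12 CPM in HFSC, 0 reads in ORS and at most 0.559 CPM in IFE. Dsg1a, a desmosomal cadherin of the epidermis, was higher in HFSC than in ORS by 2.94 (limma adjusted p = 4.45e-06), with 114 to 218 CPM in HFSC, 15 to 26.3 CPM in ORS and 289 to 545 CPM in IFE. Tgm3, a transglutaminase that cross-links trichohyalin, had 0 to 2.24 CPM in HFSC, 0 to 1.14 CPM in ORS and 51.8 to 98.4 CPM in IFE. Its log2 fold change was -5.88 in HFSC against IFE (limma adjusted p = 1.02e-05) and -6.64 in ORS against IFE (adjusted p = 8.52e-06).

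No member passed the test for a knockout effect in any compartment. In HFSC labelled knockout against control, 0 of 20 members were called beside 0.00656% of all genes, in ORS 0 of 20 beside 0%, and in IFE 0 of 20 beside 0.157%, the last being 24 genes. At an unadjusted limma p under 0.05 there was 1 member of 20 in each of the 3 comparisons, and limma-voom called 0 members in each. In HFSC that member was Krt84, which was tested only through its reads in the HFSC controls. With 2 libraries a group, a p above the threshold does not show that levels were alike. As 0 genes were called in ORS, Egfr itself was not called there. It stood at 3.72 and 55.2 CPM in ORS knockouts against 277 and 247 CPM in ORS controls. The absence of called members in ORS therefore says little about their levels.

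In HFSC the smallest p belonged to Krt84, with the values given above and a log2 fold change of -2.39 (SE 0.672, limma adjusted p = 0.544). Krt84 had passed the filter through both HFSC controls alone, so a genotype difference in HFSC was built into its being tested. Krt27 followed at 1.37 (SE 0.877) and Krt33a at 1.36 (SE 1.02), each with an adjusted p of 1.0. In ORS, Krtap8-1 had a log2 fold change of 1.66 (SE 0.630, limma adjusted p = 0.914). Krtap3-2 stood at 1.67 (SE 1.10), with 4.57 CPM in knockout E358 and 0 reads in the 3 other ORS libraries, and Krt28 at 1.60 (SE 1.13), both with an adjusted p of 1.0. For Krt28 both ORS knockouts, at 2.45 and 5.09 CPM, lay above both ORS controls, at 0.569 and 1.19 CPM.

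In IFE, Krtap12-1 had a log2 fold change of -2.13 (SE 0.916, limma adjusted p = 0.474) and its groups overlapped. Krt27 stood at -1.56 (SE 0.877, adjusted p = 0.625) and Krt32 at -1.03 (SE 0.653, adjusted p = 0.677). Krt32 was lower in both IFE knockouts, at 9.43 and 15.3 CPM, than in both IFE controls, at 21.8 and 28.9 CPM, with a 95% interval of -2.46 to 0.39 for its log2 fold change. Differences between the knockout effects were tested directly. Called members numbered 0 of 20 for ORS minus IFE, for HFSC minus IFE and for HFSC minus ORS, beside 0% of all genes in each.

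Sex moved with genotype in part of this design. Y-linked genes held 5153 and 6075 reads in the HFSC libraries labelled knockout and 0 in both HFSC controls, while in IFE they held 0 and 7 reads in knockouts and 5747 and 3609 in controls. In HFSC and in IFE, sex and genotype therefore cannot be told apart. In ORS both knockouts and control E344 held at most 28 Y-linked reads and control E341 held 11873.

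**Figure D5:**
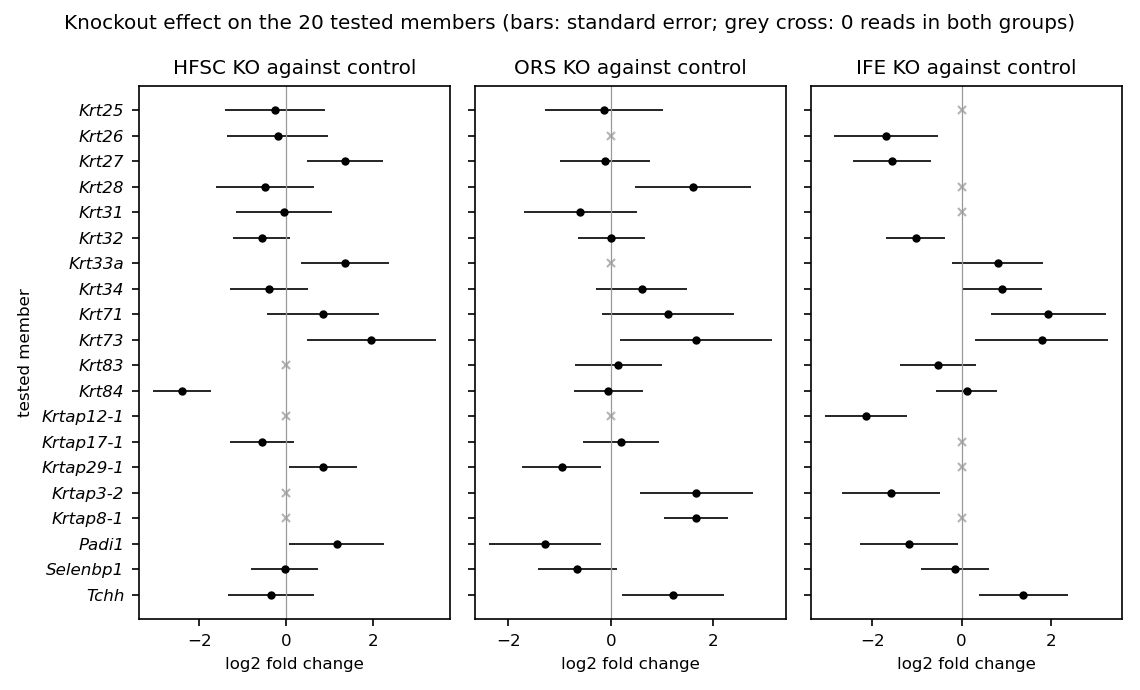
Log2 fold change (log2(CPM + 0.5) scale, points) with its standard error (bars) of knockout against control for the 20 tested members in HFSC, ORS and IFE; a grey cross marks a member with 0 reads in both groups. No point passes the adjusted threshold, and the signs vary between compartments, as for Krt27 at 1.37 in HFSC and -1.56 in IFE.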

How the data were processed

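The deposited tables give, for 25965 gene rows, log2 RPM relative to the library total, as the values themselves show; per the submitters' processing notes reads were handled with Trim Galore and DESeq2 and the build was mm10, and no source used here names the aligner or counter. Per the labels' protocols, a PicoPure kit served for extraction and a SMARTer Ultra kit for cDNA. Rows without reads sit at the value of 0.9 read, from which library totals of 39.94 to 60.88 M reads and whole reads were recovered (99.993% to 100% of values within 0.2 of a whole number).

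Reads were scaled by TMM and tested with limma 3.58.1 (trended, robust, R 4.3.3) on log2(CPM + 0.5), in 1 fit of 12 libraries as 6 groups with 6 residual degrees of freedom, for genes that reached 10 reads, scaled to the median library size, in 2 libraries and 15 in all. P-values are two-sided and Benjamini-Hochberg adjusted over 15251 genes, with calls at 0.05. The script was tested on simulated data. A count test was not used because the deposited unit is a log2 value. No 2 replicates were copies of 1 library: chi-square over genes was 41.4 to 140.2 per degree of freedom, where sampling noise alone gives about 1.

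Members with a group mean of at least 5 CPM are given by library, and statistics for called members and the 3 with the smallest p in each knockout comparison. The members, lists and rules were chosen with earlier results of these data known. All 77 members were matched by position to GENCODE genes of GRCm38, the assembly behind mm10, and promoters come from RefSeq. Alternatives covered the scaling, filter, pseudocount, limma-voom, separate fits, a replicate block, control libraries alone and each library left out.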

Additional observations from a re-analysis of the deposited data

How the results depend on the processing

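The counts of called members, 0 in each knockout comparison and in each difference of knockout effects, stayed at 0 under every alternative run. HFSC against ORS gave 7 called members with limma-voom in place of 4, and ORS against IFE gave 2 in place of 4 in the control libraries alone. With single libraries left out, ORS against IFE gave 1 to 4, HFSC against IFE 3 to 7 in place of 6, and HFSC against ORS 3 to 5. Krtap17-1 was called in ORS against IFE in every such fit, and ORS against IFE gave 1 without ORS knockout E359 or IFE control E360 and 2 without ORS control E341 or E344, IFE knockout E359 or IFE control E341. HFSC against IFE gave 3 without HFSC control L136. A lone library of a group was assumed to vary like the other groups. Of 363 single-member values under an alternative, 316 kept direction and side of the threshold, 47 lost the call and 0 reversed; the cause was not tested. On the deposited scale, which is relative to the library total, the median of all genes moved to 1.08 from 0.12 in ORS against IFE (log2). It moved to -0.91 from 0.03 in HFSC against ORS, so differences there depend on the scale used. Relative to reads in genes without TMM, called members stayed at 4 in ORS against IFE and 4 in HFSC against ORS. Whether E341, E358 and E359 mark the same mice in IFE and ORS is unresolved. The correlation of same-numbered deviations from group means was 0.05 for E341 and 0.05 for E358. The value for E359 equals that for E358 by construction, since these libraries make up both knockout groups. Y-linked and Xist reads gave the same sex in both libraries of each number. A replicate block (consensus correlation 0.102) gave 5 called members in ORS against IFE, 5 in HFSC against ORS and 6 in HFSC against IFE. Depth limits these values: of the 144 with reads, 23 rest on 1 to 9 reads.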

Other observations

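Besides Krtap17-1, Hoxc13 and Prdm1, the 23 genes with 0 reads in all IFE libraries and at least 10 CPM in all ORS libraries included Has2, a hyaluronan synthase, at 33.5 to 41.3 CPM in ORS, Bdnf, a neurotrophin, at 26.4 to 49.4 CPM and Ephb1, an ephrin receptor, at 25.7 to 56.2 CPM. These 3 were chosen after their values were seen. The reverse pattern, 0 reads in ORS and at least 10 CPM in all IFE libraries, held for 8 genes.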
